A study of Macaca fascicularis with 64 samples.

Results

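Brain of wild-type cynomolgus monkey fetuses (Macaca fascicularis) was compared between gestation month 4 and gestation month 2. The comparison used 4 of the 64 RNA sequencing libraries of the series, 2 libraries labelled brain at month 4 and 2 labelled brain at month 2, chosen by their tissue, genotype and stage labels. All 4 carry the same wild-type genotype and no treatment is named. The series is about SIRT6, a nuclear deacetylase that acts on histones, and its other libraries are 4 of fetal muscle at the same months and 56 of newborn tissues. Nothing in the labels says whether the libraries of a month came from separate fetuses, or which piece of the brain was taken, so the p-values cover only how far these libraries vary, and that variation could be technical.

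The primate forebrain makes its neurons first. Radial glia, the stem cells that line the ventricle, divide and give rise through intermediate progenitors to excitatory neurons, while inhibitory neurons migrate in from the ventral forebrain. Astrocytes, oligodendrocyte precursors and myelin follow, and microglia, which enter the brain from outside the neural lineage, multiply in parallel. Over the same span newborn neurons grow axons, assemble synapses and exchange juvenile for mature receptor subunits and chloride transporters.

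Levels are in FPKM, fragments relative to transcript length and to the mapped total of the library, as the authors deposited them. Log2 changes are month 4 over month 2 on the log2(FPKM + 1) scale, which understates the change of low genes, and they carry the standard error (SE) of the limma fit. A gene was called where its limma p, Benjamini-Hochberg adjusted over all genes tested, was under 0.05. With 2 libraries a month the fit rests on few degrees of freedom, and exact permutation of 2 libraries against 2 cannot give a two-sided p under 0.33.

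Of 13114 genes with a mean of 1 FPKM or more over the 4 libraries, 526 (4.01%) were called. Of these, 430 (3.28% of the genes tested) were higher and 96 (0.732%) lower at month 4. In all 526 both libraries of one month lay above both of the other, as they did in 51.1% of all tested genes. The median log2 change was 0.06 over all tested genes, 1.36 over the genes called higher and −1.30 over those called lower. A gene under 1 FPKM in either month can pass the filter through the other month alone, which can raise the share called in a list. Called list members of this kind include AGT, ALDH1L1, SLIT3, UNC13C, VIP and GABRD, each under 1 FPKM in both month 2 libraries. Of the 13114 tested genes 7396 had a log2 change above 0 and 5718 below 0, the background for the counts by sign below. An unadjusted limma p under 0.05 was seen in 2502 of the 13114, the background for the counts at that level below. List counts from fits that leave out a library, given below, are to be read beside the total calls of the same fit. Without month 4 library 1 or library 2 limma called 0 genes, with 1971 and 1554 genes at an unadjusted p under 0.05, while 797 were called without month 2 library 1 and 1377 without month 2 library 2.

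The libraries also differed within a month. The absolute log2 difference between libraries had a median of 0.25 at month 4 and 0.23 at month 2. Across the tested genes Pearson's r was 0.972 between the month 4 libraries and 0.962 between the month 2 libraries, and from 0.924 to 0.950 across months, where genes are not independent replicates. Genes of meningeal and connective tissue fibroblasts summed to 2010 and 57.2 FPKM at month 4, against 71.3 and 569 FPKM at month 2, so that month 4 library 1 and month 2 library 2 held the higher levels. PTGDS, a prostaglandin synthase of the meninges, made up most of this, at 1742 and 18.2 FPKM at month 4 and 10.8 and 446 FPKM at month 2. The collagen gene COL1A1 was at 55.1 and 6.04 FPKM at month 4 and at 8.01 and 21.6 FPKM at month 2. Genes of the cell cycle summed to 72.9 and 75.4 FPKM at month 4, against 174 and 69.2 FPKM at month 2, where library 1 stood apart.

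Markers of the telencephalon were present in all 4 libraries. EMX1, a transcription factor of the dorsal telencephalon, was at 12.4 and 15.5 FPKM at month 4 and 8.84 and 10.99 FPKM at month 2. LHX2, which specifies the cortex, was at 47.4 and 67.9 FPKM at month 4 and 86.4 and 64.6 FPKM at month 2. Of 27 midbrain, hindbrain and cerebellar genes 11 were listed at 0 in all 4 libraries, among them EN2, PAX2 and FOXA2, and 4 passed the filter on level. CBLN1, a synaptic organiser best known from cerebellar granule cells, had the highest mean of these at month 4, at 12.4 and 18.0 FPKM, against 10.4 and 9.21 FPKM at month 2. No gene of the forebrain list or of the midbrain and hindbrain list was called by limma, with 2 of 8 and 1 of 4 at an unadjusted p under 0.05. Skeletal muscle and cartilage genes were seen at low levels, with a sum of 82.2 and 105 FPKM at month 4 and 110 and 46.0 FPKM at month 2, while the muscle regulator MYOD1 was between 0 and 0.20 FPKM in the 4 libraries.

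The genes with the largest rises included MT3, NRGN, AGT and AQP4. MT3, a metallothionein of the brain that binds zinc and copper, was at 64.4 and 86.3 FPKM at month 4, against 3.74 and 5.29 FPKM at month 2 (log2 change 3.79, SE 0.24, limma adjusted p = 2.8e-04). SLC30A3, the transporter that loads zinc into synaptic vesicles, was at 43.2 and 53.6 FPKM at month 4, against 1.01 and 7.47 FPKM at month 2 (log2 change 3.58). The months did not overlap in either gene, although month 2 library 2 held more SLC30A3 than library 1. The signalling genes RASGRF1, an exchange factor for Ras, and RGS4, which shortens G protein signals, rose by 2.89 and 2.82 on the log2 scale. CRYAB, a small heat shock protein, rose by 2.67, CLDN10, a tight junction protein, by 2.96 and GFY, which is expressed in olfactory neurons of the mouse, by 2.70. PTH2, the neuropeptide TIP39, was at 10.9 and 13.7 FPKM at month 4 and was listed at 0 in both month 2 libraries.

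RPL37 and RPL39 were also among the genes with the largest rises. Both encode proteins of the large ribosomal subunit. RPL37 was at 158 and 224 FPKM at month 4, against 17.6 and 3.87 FPKM at month 2, and RPL39 was at 338 and 444 FPKM at month 4, against 37.3 and 22.6 FPKM at month 2. They were the only called genes among 77 tested ribosomal protein genes, whose median log2 change was −0.14. In fetal muscle the same genes were also higher at month 4, by 2.74 and 2.32 on the log2 scale. Ribosomal protein genes have many near-identical copies in primate genomes, and these values are given as uncertain. The part of such copies in them was not tested.

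**Figure D1:**
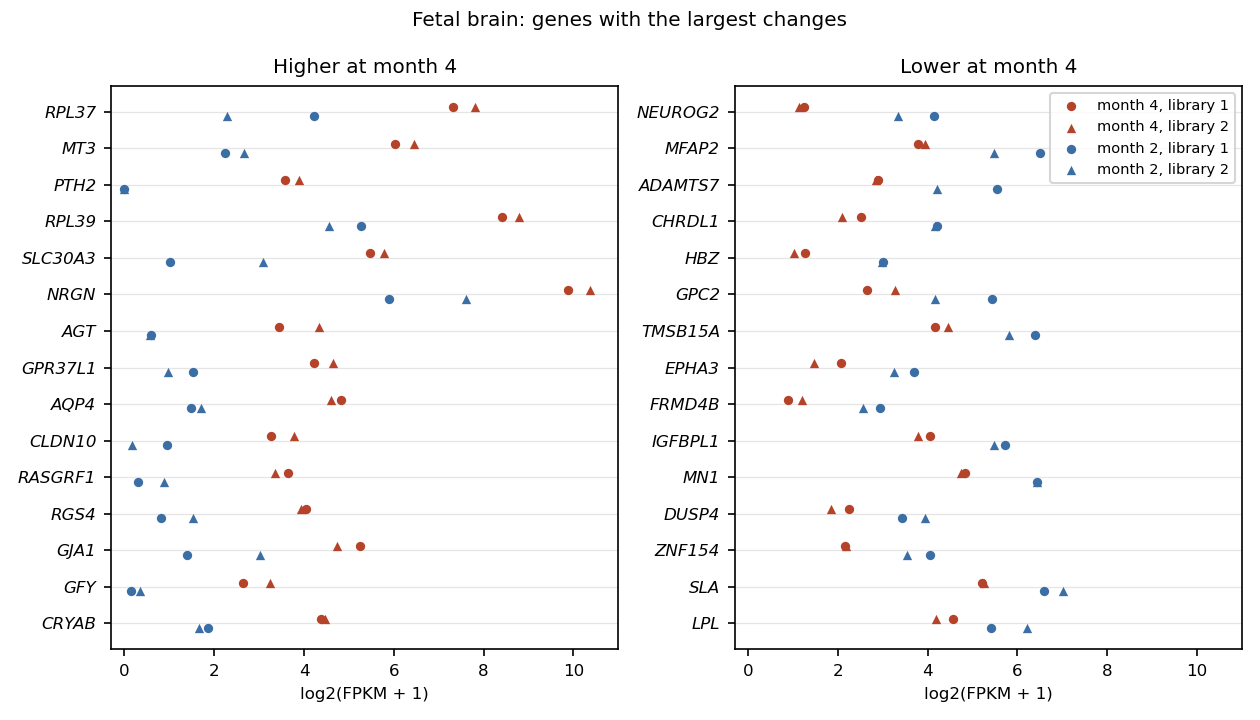
Levels in each library of the 15 genes with the highest and the 15 with the lowest log2 changes past the threshold, on a log2(FPKM + 1) axis. Circles are library 1 and triangles library 2 of a month, and in every gene shown both month 4 libraries lie on one side of both month 2 libraries.

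Astrocyte genes moved together. Of 23 tested, 12 rose, or 52.2% beside 3.28% of all tested genes, 0 fell, and all 23 had a log2 change above 0, with a median of 1.24. AQP4, the water channel of astrocyte endfeet, was at 27.5 and 23.2 FPKM at month 4, against 1.81 and 2.26 FPKM at month 2 (log2 change 3.12, SE 0.22, limma adjusted p = 4.5e-04). AGT, the angiotensinogen that astrocytes make in the brain, was at 9.83 and 19.3 FPKM at month 4 and at 0.50 and 0.49 FPKM at month 2 (log2 change 3.31). GFAP, the intermediate filament of astrocytes, was at 73.1 and 93.4 FPKM at month 4 and at 16.9 and 10.5 FPKM at month 2 (log2 change 2.54, SE 0.26, limma adjusted p = 0.0020). The months did not overlap in any of these genes.

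GJA1, the gap junction protein connexin 43, was at 37.0 and 25.5 FPKM at month 4, against 1.64 and 7.08 FPKM at month 2. SPARCL1, a secreted factor that promotes synapses, rose by 1.87 on the log2 scale, FGFR3, a growth factor receptor of glial progenitors, by 1.57, and ID3, an inhibitor of differentiation factors, by 1.46. GLUL, glutamine synthetase, rose by 1.29 and ALDH1L1, a folate enzyme used as an astrocyte marker, by 1.25. GPR37L1, an astrocyte receptor that was not on the list, was among the genes with the largest rises, at 17.6 and 23.9 FPKM at month 4 and 1.89 and 0.95 FPKM at month 2. SLC1A3, a glutamate transporter of astrocytes and radial glia, did not pass. It was at 93.9 and 78.4 FPKM at month 4 and 87.8 and 29.8 FPKM at month 2 (log2 change 0.73, limma adjusted p = 0.39). SLC1A2, the main glutamate transporter of mature astrocytes, was at 22.7 and 4.68 FPKM at month 4 and 6.41 and 7.20 FPKM at month 2, with overlapping months (adjusted p = 0.60). With quantile normalisation 6 astrocyte genes were called higher in place of 12, and without month 2 library 1 the count was 20. The list's summed level was 1580 and 1770 FPKM at month 4, against 851 and 462 FPKM at month 2. In bulk tissue fewer cells of a type and less RNA per cell cannot be told apart, here and for every cell type below.

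**Figure D2:**
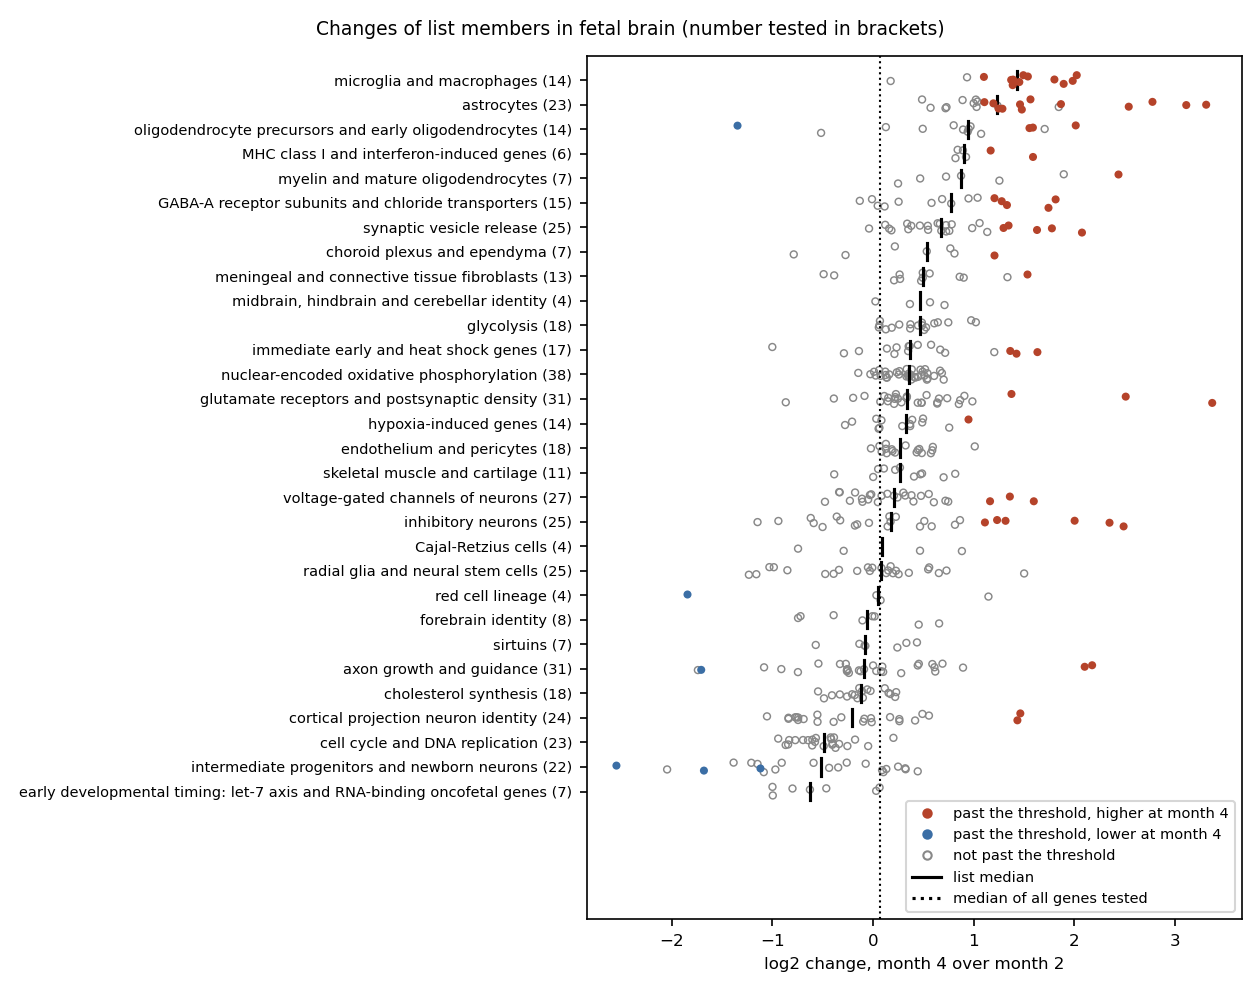
Log2 change, month 4 over month 2, of each tested member of the gene lists, with filled points past the threshold, a bar at the median of each list and a dotted line at the median of all genes tested. The medians of the microglial and astrocyte lists lie furthest to the right, although single genes of other lists lie further out. The only points past the threshold on the left are members of 4 lists: newborn neuron, axon guidance, oligodendrocyte precursor and red cell genes.

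Microglial genes showed the largest share of calls of the lists. Of 20 in the list, 14 passed the filter on level and were tested. Among these, 12 rose (85.7%, beside 3.28% of all tested genes) and 0 fell, and the median log2 change was 1.43. Members under 1 FPKM at month 2, P2RY12 and TREM2 among them, passed the filter through month 4 alone, which can raise this share. With quantile normalisation 8 were called higher, and with a filter at 5 FPKM the count was 4. P2RY12, the purinergic receptor of homeostatic microglia, was at 5.38 and 5.67 FPKM at month 4, against 0.77 and 0.53 FPKM at month 2 (log2 change 1.99, SE 0.24, limma adjusted p = 0.0038). The complement genes C1QC and C1QB, whose products tag synapses and debris, were at 8.90 and 13.5 FPKM and at 8.15 and 13.4 FPKM at month 4, against 2.77 and 1.75 FPKM and 2.63 and 1.19 FPKM at month 2. CSF1R, the receptor that microglia need to survive, was at 5.37 and 7.34 FPKM at month 4 and at 1.66 and 1.52 FPKM at month 2 (log2 change 1.50), and CX3CR1, the fractalkine receptor, rose by 1.46.

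TYROBP and TREM2, a signalling adaptor and its receptor, rose by 1.80 and 1.39 on the log2 scale. The lysosomal gene CD68 did not pass, at 1.37 and 2.24 FPKM at month 4 and 2.11 and 0.94 FPKM at month 2. The summed level of the whole microglial list was 79.4 and 106 FPKM at month 4 and 26.5 and 19.9 FPKM at month 2. Of 18 genes of endothelium and pericytes 0 were called by limma, with 3 at an unadjusted p under 0.05, and their median log2 change was 0.27. CLDN5, the tight junction protein of brain endothelium, was at 27.2 and 30.6 FPKM at month 4 and 18.2 and 19.5 FPKM at month 2 (adjusted p = 0.15). Macrophages of the meninges express many of the same genes as microglia, and the meningeal genes were highest in month 4 library 1, whereas the microglial sum was highest in month 4 library 2. The part of other macrophages in the microglial rise was not tested.

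Genes of oligodendrocyte precursors rose in part. Of 14 tested, 3 rose (21.4%, beside 3.28% of all tested genes) and 1 fell (7.14%, beside 0.732%), with a median of 0.95. The log2 change was above 0 in 12 of the 14, and 11 had an unadjusted limma p under 0.05. GPR17, a receptor of cells committed to become oligodendrocytes, was at 15.9 and 19.0 FPKM at month 4, against 5.36 and 2.26 FPKM at month 2 (log2 change 2.02, SE 0.31, limma adjusted p = 0.011). SOX10, the transcription factor of the lineage, was at 12.6 and 20.9 FPKM at month 4 and at 6.41 and 3.43 FPKM at month 2 (log2 change 1.59). LHFPL3, a membrane protein of precursors, rose by 1.56. The proteoglycan gene VCAN, which is also expressed by young neurons and by fibroblasts, fell to 7.43 and 5.62 FPKM at month 4, against 15.3 and 21.1 FPKM at month 2 (log2 change −1.35). PDGFRA, the growth factor receptor of precursors, was at 12.1 and 6.81 FPKM at month 4 and 7.04 and 5.42 FPKM at month 2 and did not pass (adjusted p = 0.39). Without month 2 library 1 the list had 7 members called higher, and without month 2 library 2 it had 6.

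Myelin genes were at low levels at both months. Of 7 tested, 1 rose (14.3%, beside 3.28% of all tested genes) and 0 fell, with a median log2 change of 0.88. The list's summed level was 92.1 and 102 FPKM at month 4, against 44.1 and 37.7 FPKM at month 2. MBP, myelin basic protein, was at 9.64 and 20.3 FPKM at month 4 and 5.90 and 1.37 FPKM at month 2, and missed the threshold (adjusted p = 0.064). Another 13 of the 20 myelin genes in the table had a mean under 1 FPKM and were not tested, among them MOG, MOBP and OPALIN, which belong to compacted myelin and mature oligodendrocytes. In newborn wild-type brain, in a table that was normalised separately and was not compared by a test, MBP averaged 501 FPKM over the 2 libraries of the animal labelled WT2 and 164 FPKM over the 2 of WT3. MOBP, a protein of compact myelin, was at 0.026 and 0.051 FPKM at month 2 and at 0.71 and 0.42 FPKM at month 4, and averaged 44.6 and 12.3 FPKM in those newborns.

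**Figure D3:**
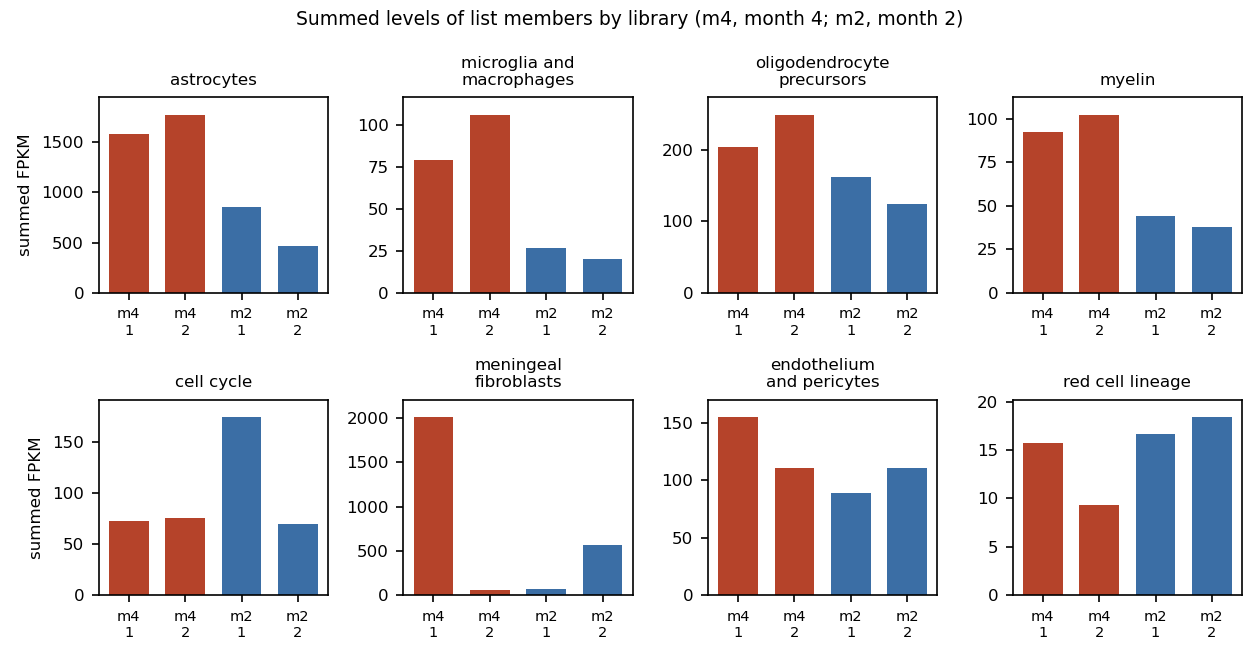
Summed FPKM of all members in the table of 8 gene lists, 1 bar per library, with month 4 on the left (m4) and month 2 on the right (m2). Astrocyte, microglial, oligodendrocyte precursor and myelin sums are higher in both month 4 libraries, while the cell cycle sum stands out in month 2 library 1 and the meningeal sum in month 4 library 1 and month 2 library 2.

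Genes of neurogenesis were among those that fell. Of 22 tested genes of intermediate progenitors and newborn neurons, 3 fell (13.6%, beside 0.732% of all tested genes) and 0 rose, with a median of −0.51. NEUROG2, the proneural factor that drives cortical progenitors towards excitatory neurons, fell to 1.39 and 1.19 FPKM at month 4, against 16.7 and 9.18 FPKM at month 2 (log2 change −2.55, SE 0.29, limma adjusted p = 0.0029). It was the named gene with the largest fall. IGFBPL1, a secreted protein of newborn neurons, was at 15.6 and 12.9 FPKM at month 4, against 52.0 and 43.8 FPKM at month 2 (log2 change −1.68).

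HES6, which promotes neuronal differentiation, was at 50.4 and 63.3 FPKM at month 4 and 151 and 102 FPKM at month 2 (log2 change −1.12, adjusted p = 0.049), and its call was lost in most alternatives, a pseudocount of 0.1 and quantile normalisation among them. Genes of slightly later neurons had lower values at month 4 that missed the threshold. DCX, the microtubule protein of migrating neurons, was at 75.5 and 47.3 FPKM at month 4 and 115 and 121 FPKM at month 2 (adjusted p = 0.078). NEUROD2, a factor of differentiating excitatory neurons, was at 57.7 and 75.9 FPKM at month 4 and 133 and 118 FPKM at month 2 (adjusted p = 0.067). STMN2 and TUBB3, expressed by neurons at large, had log2 changes of 0.32 and 0.10.

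EOMES, the factor that defines intermediate progenitors, was at 0 and 0.053 FPKM at month 4 and at 11.1 and 0.48 FPKM at month 2. Its month 2 level rested on library 1, and it did not pass (log2 change −2.05, adjusted p = 0.18). NEUROG1, another proneural factor, was listed at 0 in both month 4 libraries and was at 2.40 and 0.19 FPKM at month 2, a mean too low to test. The same library was the highest of the 4 in 14 of the 22 tested members of this list. Without month 2 library 1 the counts were 3 lower and 2 higher, and without month 2 library 2 they were 10 lower and 0 higher.

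Cell cycle genes did not pass the test. Of 23 tested, 0 were called by limma and 2 had an unadjusted p under 0.05, while 22 had a log2 change below 0, with a median of −0.49. TOP2A, a topoisomerase of dividing cells, was at 1.65 and 1.27 FPKM at month 4 and at 7.84 and 1.51 FPKM at month 2 (adjusted p = 0.34). MKI67, which marks dividing cells, had a mean under 1 FPKM and stood at 0.48 and 0.57 FPKM at month 4 and at 2.33 and 0.46 FPKM at month 2. The values of month 2 library 2 were close to those of month 4 in both genes, and month 2 library 1 was the highest of the 4 in 22 of the 23. Without month 2 library 2, 17 members were called lower, and without month 2 library 1 the count was 0.

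No radial glial gene passed the test. Of 25 tested, 0 were called by limma and 4 had an unadjusted p under 0.05, beside 2502 of all 13114 tested genes. The median log2 change was 0.08. NES, the intermediate filament of neural stem cells, was at 9.50 and 10.3 FPKM at month 4 and 26.7 and 15.9 FPKM at month 2 (log2 change −0.99, adjusted p = 0.073). FABP7, a fatty acid binding protein of radial glia, was at 464 and 591 FPKM at month 4 and 1763 and 863 FPKM at month 2 (adjusted p = 0.14). FAM107A, a gene of outer radial glia that is also expressed by astrocytes, had a log2 change of 1.50 (adjusted p = 0.099). HOPX, another gene of outer radial glia, was at 53.3 and 54.8 FPKM at month 4 and 76.4 and 26.5 FPKM at month 2, with overlapping months. Month 2 library 1 held the highest level of 19 of the 25. Without that library 8 members were called higher and 0 lower, and without month 2 library 2 the counts were 0 higher and 5 lower.

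Other genes that fell lie outside the neurogenic list. MFAP2, a microfibril protein of the extracellular matrix, was at 12.8 and 14.3 FPKM at month 4, against 88.9 and 43.5 FPKM at month 2 (log2 change −2.12, SE 0.31, limma adjusted p = 0.0088). CHRDL1, which antagonises bone morphogenetic proteins, fell by 1.89 on the log2 scale, and GPC2, a glypican of developing neurons, by 1.84. MN1, a transcriptional regulator, was at 27.3 and 25.7 FPKM at month 4 and 85.0 and 84.9 FPKM at month 2, and the 2 libraries of each month were close. TMSB15A, a thymosin that binds actin monomers, fell by 1.80, DUSP4, a phosphatase of MAP kinases, by 1.64. LPL, lipoprotein lipase, was at 22.6 and 17.1 FPKM at month 4 and at 41.6 and 73.4 FPKM at month 2 (log2 change −1.44). The other named genes that fell were ADAMTS7, a secreted protease, FRMD4B, ZNF154 and SLA, with log2 changes of −1.998, −1.70, −1.63 and −1.57. HBZ, a globin chain that embryonic red cells use, fell to 1.40 and 1.03 FPKM at month 4, against 7.05 and 6.89 FPKM at month 2 (log2 change −1.85), and was the 1 called gene of 4 tested red cell genes. The adult beta globin HBB was at 3.30 and 0.75 FPKM at month 4 and at 0.53 and 0 FPKM at month 2 (adjusted p = 0.18).

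Of 24 tested genes that mark cortical projection neurons, 2 rose (8.33%, beside 3.28% of all tested genes) and 0 fell, and 12 had an unadjusted p under 0.05, with a median of −0.21. NR2F1, which patterns caudal and lateral cortex and is also expressed by inhibitory neurons, was at 119 and 172 FPKM at month 4, against 62.0 and 42.3 FPKM at month 2 (log2 change 1.47, SE 0.27, limma adjusted p = 0.023). CRYM, a thyroid hormone binding protein of deep layer neurons, was at 121 and 166 FPKM at month 4 and at 61.3 and 43.7 FPKM at month 2 (log2 change 1.44). Neither was called with quantile normalisation, and without month 2 library 1 or library 2 the list had 2 or 6 members called lower beside 2 called higher. TBR1, of early and deep layer neurons, was at 24.0 and 19.6 FPKM at month 4 and 42.0 and 32.8 FPKM at month 2 (adjusted p = 0.11). Of 4 tested genes of Cajal-Retzius cells, the first neurons of the cortical surface, 0 were called and 1, TBR1, had an unadjusted p under 0.05.

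Inhibitory neuron genes rose in part. Of 25 tested, 6 rose (24.0%, beside 3.28% of all tested genes) and 0 fell, with a median of 0.17. Peptides of differentiated cells were among the 6, but PENK, a peptide gene of the same list, was not called. SST, somatostatin, was at 450 and 517 FPKM at month 4, against 83.1 and 106 FPKM at month 2 (log2 change 2.35, SE 0.26, limma adjusted p = 0.0024). CCK, cholecystokinin, which excitatory neurons also express, was at 135 and 141 FPKM at month 4 and at 35.6 and 31.6 FPKM at month 2 (log2 change 2.01). TAC1, the precursor of substance P, rose by 2.49 and VIP, vasoactive intestinal peptide, by 1.23. SLC32A1, which fills vesicles with GABA, rose by 1.11.

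None of the transcription factors that specify inhibitory neurons was called, and neither was GAD1. DLX2, expressed in their progenitors, was at 8.84 and 9.78 FPKM at month 4 and 32.8 and 14.4 FPKM at month 2 (log2 change −1.15, adjusted p = 0.096). LHX6, of neurons from the medial ganglionic eminence, was at 13.9 and 13.2 FPKM at month 4 and 13.9 and 14.0 FPKM at month 2 (log2 change −0.04). GAD1, which makes GABA, was at 37.3 and 41.6 FPKM at month 4 and 30.9 and 24.2 FPKM at month 2 (adjusted p = 0.24). The parvalbumin gene PVALB was too low to test, at 0.25 and 0.47 FPKM at month 4 and 0.98 and 1.67 FPKM at month 2. With quantile normalisation 2 of the 6 calls were left, SST and CCK, and without month 2 library 2 the list had 4 members called lower beside 6 called higher.

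Of 25 tested genes of synaptic vesicle release, 5 rose (20%, beside 3.28% of all tested genes) and 0 fell. The log2 change was above 0 in 24 of the 25, with a median of 0.68. SLC17A7, the vesicular glutamate transporter of cortical neurons, was at 94.8 and 118 FPKM at month 4, against 15.9 and 36.9 FPKM at month 2 (log2 change 2.08, SE 0.35, limma adjusted p = 0.014). SLC17A6, a second vesicular glutamate transporter, was at 6.96 and 5.09 FPKM at month 4 and at 1.58 and 0.60 FPKM at month 2 (log2 change 1.78). SYP, synaptophysin of the vesicle membrane, was at 220 and 249 FPKM at month 4 and at 56.7 and 98.5 FPKM at month 2 (log2 change 1.63). SYN2, a synapsin that tethers vesicles, rose by 1.35 and UNC13C, a priming factor, by 1.30.

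Several other genes of this list did not pass. SNAP25, a membrane SNARE, was at 174 and 172 FPKM at month 4 and 60.5 and 101 FPKM at month 2 (adjusted p = 0.057). SYT1, the calcium sensor of release, had a log2 change of 0.78 (adjusted p = 0.12). The active zone scaffolds BSN and PCLO had log2 changes of −0.04 and 0.12. With quantile normalisation 1 of the 5 calls, SLC17A6, was left. Without month 2 library 2 more members were called higher, as was the case over all genes.

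**Figure D4:**
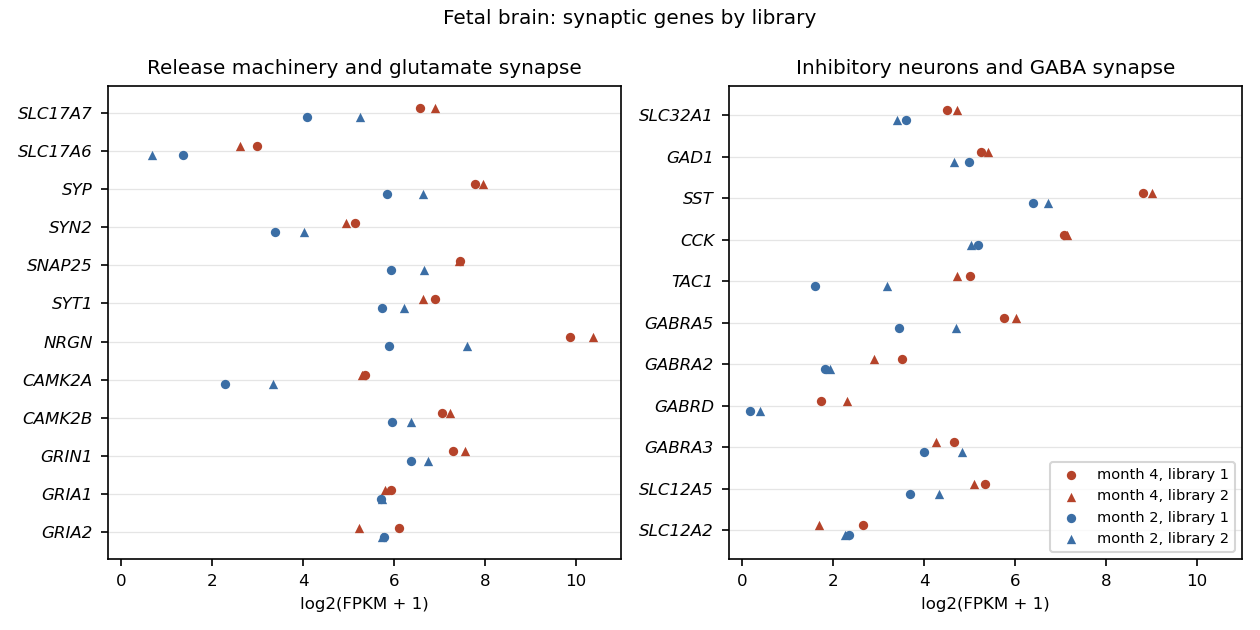
Levels by library of genes of vesicle release and the glutamate synapse on the left, and of inhibitory neurons and the GABA synapse on the right, on a log2(FPKM + 1) axis. NRGN, CAMK2A, SST, CCK and GABRD have both month 4 libraries well above month 2, whereas GRIA2, GABRA3 and SLC12A2 overlap between months.

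In the glutamate synapse 3 of 31 tested genes rose (9.68%, beside 3.28% of all tested genes) and 0 fell, with a median of 0.34. NRGN, neurogranin, which holds calmodulin in dendritic spines, was at 945 and 1328 FPKM at month 4, against 58.6 and 195 FPKM at month 2 (log2 change 3.37, SE 0.50, limma adjusted p = 0.0090). CAMK2A, the calcium-dependent kinase of spines, was at 40.0 and 38.6 FPKM at month 4 and at 3.90 and 9.18 FPKM at month 2 (log2 change 2.51). GRIK1, a kainate receptor subunit, rose by 1.38. CAMK2B, the second subunit of that kinase, was at 133 and 151 FPKM at month 4 and 60.8 and 82.2 FPKM at month 2 (adjusted p = 0.057).

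Most receptor subunits did not pass the test. The obligatory NMDA receptor subunit GRIN1 was at 157 and 189 FPKM at month 4 and 82.7 and 107 FPKM at month 2 (adjusted p = 0.090). GRIN2B, the juvenile NMDA subunit, was at 11.7 and 0.996 FPKM at month 4 and 3.15 and 7.03 FPKM at month 2, a spread within each month that exceeds the difference between them. GRIN2A, the subunit that joins later, was at 7.77 and 5.43 FPKM at month 4 and 2.00 and 4.33 FPKM at month 2 (adjusted p = 0.15). The AMPA receptor subunits GRIA1 and GRIA2 had log2 changes of 0.15 and −0.08. Without month 2 library 2 more members of the glutamate synapse list were called higher, as was the case over all genes. For NRGN in newborn wild-type brain the separately normalised table gives means of 2457 FPKM for WT2 and 2703 FPKM for WT3.

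Among GABA-A receptor subunits and chloride transporters 5 of 15 rose (33.3%, beside 3.28% of all tested genes) and 0 fell, with a median of 0.78. GABRA5, an extrasynaptic alpha subunit, was at 53.0 and 64.4 FPKM at month 4, against 9.86 and 25.2 FPKM at month 2 (log2 change 1.82, SE 0.36, limma adjusted p = 0.029). GABRD, the delta subunit of tonic inhibition, was at 2.30 and 3.96 FPKM at month 4 and at 0.12 and 0.30 FPKM at month 2 (log2 change 1.75). GABRA2 and GABRA4, alpha subunits of synaptic and extrasynaptic receptors, rose by 1.33 and 1.28. SLC12A5, the transporter KCC2 that expels chloride and so makes GABA inhibitory, was at 39.5 and 33.5 FPKM at month 4 and 11.99 and 19.1 FPKM at month 2 (log2 change 1.21, adjusted p = 0.034).

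SLC12A2, the transporter NKCC1 that imports chloride, was at 5.29 and 2.21 FPKM at month 4 and 4.08 and 3.77 FPKM at month 2 (log2 change −0.13, adjusted p = 0.86). GABRA3, an alpha subunit abundant in the young cortex, had a log2 change of 0.05, and the scaffold gephyrin, GPHN, one of −0.01. With quantile normalisation 0 of the 5 were called, and SLC12A5 and GABRA4 were lost with the replicate number as a block. Without month 2 library 2 more members were called higher, as was the case over all genes.

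Of 27 tested genes of voltage-gated channels 3 rose (11.1%, beside 3.28% of all tested genes) and 0 fell. Without month 2 library 2 more were called higher, as was the case over all genes. SCN2B, an auxiliary sodium channel subunit, was at 12.7 and 10.1 FPKM at month 4, against 2.46 and 3.81 FPKM at month 2 (log2 change 1.60, SE 0.25, limma adjusted p = 0.012). CACNA2D3, an auxiliary calcium channel subunit, rose by 1.36. The pore-forming sodium channel gene SCN2A was at 42.9 and 24.8 FPKM at month 4 and 14.3 and 25.2 FPKM at month 2 (adjusted p = 0.25).

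In axon growth and guidance 2 of 31 genes rose (6.45%, beside 3.28% of all tested genes) and 1 fell (3.23%, beside 0.732%). Without month 2 library 1 more were called lower, as was the case over all genes. SLIT2 and SLIT3, secreted ligands that repel axons through ROBO receptors, were at 9.34 and 7.14 FPKM and at 6.09 and 4.60 FPKM at month 4, against 1.17 and 1.09 FPKM and 0.40 and 0.38 FPKM at month 2. Their log2 changes were 2.11 (SE 0.24, limma adjusted p = 0.0029) and 2.18 (SE 0.25). SLIT1, another ligand of the family, was at 54.6 and 52.2 FPKM at month 4 and 37.7 and 39.6 FPKM at month 2 and did not pass (adjusted p = 0.26), and neither did the receptors ROBO1 and ROBO2, with log2 changes of −0.25 and −0.24. EPHA3, an ephrin receptor, fell to 3.20 and 1.75 FPKM at month 4, against 11.9 and 8.58 FPKM at month 2 (log2 change −1.71). SEMA3C had a larger difference that did not pass, at 7.99 and 3.69 FPKM at month 4 and at 10.5 and 39.8 FPKM at month 2, where 1 library was high.

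None of 7 tested genes of early developmental timing was called by limma, and 4 had an unadjusted p under 0.05. Without month 2 library 2, 4 were called lower. This list holds the let-7 axis and RNA-binding genes of fetal tissues. The closest to the threshold was IGF2BP3, which binds IGF2 messenger RNA, at 1.79 and 1.34 FPKM at month 4 and 4.46 and 3.78 FPKM at month 2 (log2 change −0.999, SE 0.24, adjusted p = 0.057). MYCN, a growth regulator of progenitors, was at 25.8 and 27.8 FPKM at month 4 and 38.9 and 45.1 FPKM at month 2 (adjusted p = 0.13). DNMT3B, a DNA methyltransferase of early development, had a log2 change of −0.996, IGF2BP2 one of −0.80, SALL1 one of −0.46, ARID3A one of 0.07 and HMGA1 one of 0.03. LIN28A, LIN28B, TRIM71, HMGA2, IGF2BP1 and SALL4 had means under 1 FPKM at both months. HMGA2 was at 0 and 0.11 FPKM at month 4 and at 0.11 and 1.07 FPKM at month 2. SIRT6, the gene the series is about, was at 10.5 and 19.8 FPKM at month 4 and 16.4 and 14.2 FPKM at month 2 (log2 change −0.08, SE 0.29, adjusted p = 0.91), and 0 of the 7 sirtuins were called by limma, with 1, SIRT1, at an unadjusted p under 0.05.

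Metabolic and stress lists were described in the same way. All 18 tested glycolysis genes and 36 of 38 genes of oxidative phosphorylation had log2 changes above 0, with medians of 0.47 and 0.36, but 0 of either were called by limma, with 5 and 6 at an unadjusted p under 0.05. None of 18 cholesterol synthesis genes was called by limma, with 1 at an unadjusted p under 0.05 and a median of −0.12. Of 17 immediate early and heat shock genes 3 rose (17.6%, beside 3.28% of all tested genes), and 5 were higher when month 2 library 1 or month 2 library 2 was left out. EGR1, a transcription factor induced by neuronal activity, was at 9.02 and 9.76 FPKM at month 4 and at 3.01 and 3.05 FPKM at month 2 (log2 change 1.37, SE 0.22, limma adjusted p = 0.012), and JUNB and FOS rose by 1.43 and 1.64. B2M, the light chain of MHC class I, and IFI27, an interferon-induced gene, rose by 1.17 and 1.59. They were 2 of 6 tested genes of that list (33.3%, beside 3.28% of all tested genes), a count of 0 with quantile normalisation. Without month 2 library 1 more of that list were called higher, as was the case over all genes. BNIP3, a mitochondrial gene induced by low oxygen, was the 1 called of 14 hypoxia genes (adjusted p = 0.048). RSPO2 was the 1 called gene of 7 choroid plexus and ependyma genes and TWIST1 of 13 meningeal genes, each under 4 FPKM in every library, and the choroid plexus marker TTR was between 0.48 and 2.57 FPKM.

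The change in brain was set against the change over the same months in fetal muscle, of the same table and the same wild-type genotype, by the interaction of month and tissue in 1 limma fit of all 8 fetal libraries. Of 13742 genes tested, 1923 (14.0%) differed in their change, 1015 (7.39%) with a higher log2 change in brain and 908 (6.61%) with a lower one. Of the 509 genes called in brain that could be tested, 264 were among them. These 509 were chosen for a change in the same brain libraries, so a share above the 14.0% of all genes was built in. In muscle alone 4687 of 12352 genes (37.9%) were called, 2753 higher (22.3%) and 1934 lower (15.7%) at month 4. The genes called higher in both tissues numbered 114, which is 26.5% of those higher in brain and 4.14% of those higher in muscle, and the genes called lower in both numbered 41, or 42.7% of those lower in brain and 2.12% of those lower in muscle. Another 36 were higher in brain and lower in muscle, and 10 the reverse. Leaving out 1 library gave between 414 (without muscle month 2 library 2) and 2220 differing genes, with 441 without muscle month 2 library 1, 648 without brain month 4 library 2 and 952 without muscle month 4 library 1.

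LPL showed the largest opposite change of the named genes. It fell in brain, with the values given above, while in muscle it was at 40.3 and 33.8 FPKM at month 4, against 2.53 and 2.38 FPKM at month 2, and the difference of the changes was −4.90 on the log2 scale (SE 0.37, limma adjusted p = 2.4e-04). CDKN1A, the cell cycle inhibitor p21, was at 8.67 and 12.7 FPKM at month 4 and at 1.99 and 1.93 FPKM at month 2 in brain, and in muscle at 6.74 and 3.76 FPKM at month 4 and at 26.0 and 27.3 FPKM at month 2 (difference 4.15, SE 0.36). IGSF1, a membrane protein of the immunoglobulin family, rose by 2.40 in brain and fell by 1.51 in muscle. MN1, CHRDL1 and ADRA2A, an adrenergic receptor, fell in brain and rose in muscle, with differences of −3.08, −3.21 and −3.06.

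For CPLX1, a complexin of vesicle release, PENK, the enkephalin precursor, and NFIX, a transcription factor of late progenitors and muscle, the difference came with a called change in muscle and none in brain. CPLX1 was at 32.8 and 52.1 FPKM at month 4 and 20.4 and 29.6 FPKM at month 2 in brain, and in muscle at 0.056 and 0.17 FPKM at month 4 and at 24.7 and 23.7 FPKM at month 2 (difference 5.23, SE 0.35, limma adjusted p = 1.1e-04). PENK differed by 3.56 and NFIX by −3.18. PTH2 was listed at 0 in 3 of the 4 muscle libraries, and its difference of 4.39 rests on the brain values at month 4.

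Of 14 microglial genes 11 had a change that differed between the tissues, beside 264 of the 509 genes called in brain. Of these 14, 12 were called higher in the same brain libraries, so a share above the 14.0% of all tested genes was built in. C1QC rose by 1.90 in brain and fell by 1.21 in muscle, a difference of 3.11 (SE 0.34, limma adjusted p = 0.0011). Of 22 astrocyte genes that could be tested 6 differed, and no test compared these lists with each other. AQP4, which skeletal muscle fibres also express, rose in both, by 3.12 in brain and 3.50 in muscle (difference −0.38, adjusted p = 0.42). HBZ fell in both, with a log2 change of −1.85 in brain and −2.82 in muscle, a difference that did not pass (0.97, adjusted p = 0.13).

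**Figure D5:**
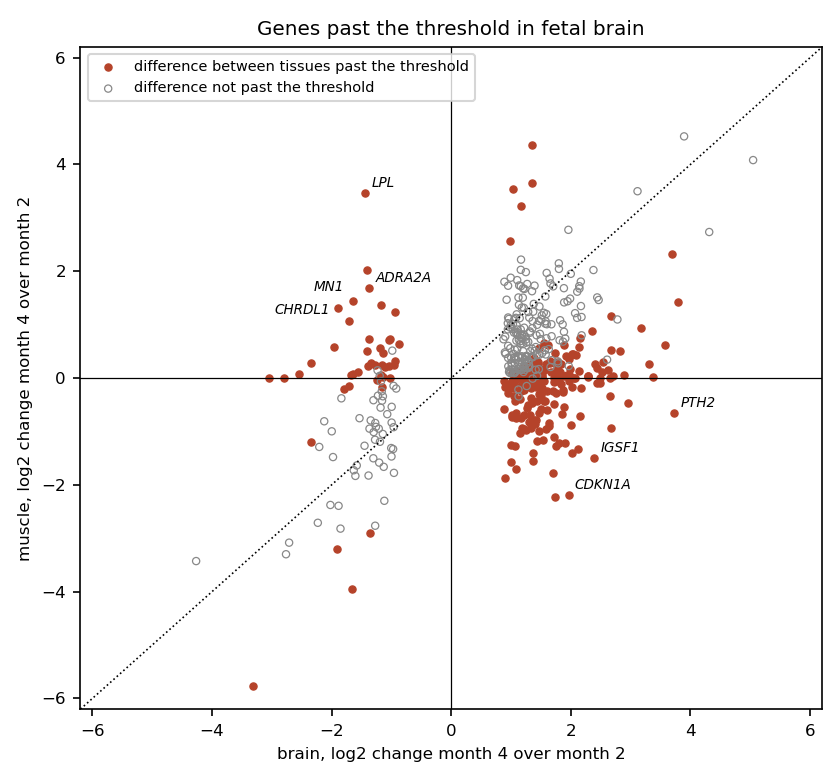
Log2 change from month 4 over month 2 in brain on the x axis and in muscle on the y axis, 1 point per gene. The 509 genes shown were called in brain and tested for the difference between the tissues. They were not required to pass the filter on level in muscle, and SSTR4, for example, had a muscle change of 0. Points are filled where the difference passed the threshold (264 genes), and a dotted line marks equal change. LPL, MN1, CHRDL1 and ADRA2A lie at the upper left, lower in brain and higher in muscle, and CDKN1A and IGSF1 lie at the lower right.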

How the data were processed

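The authors deposited FPKM values per gene in 1 table for the fetal and 1 for the newborn libraries, of 28141 genes each. Per the labels' protocols, TRIzol RNA went into TruSeq libraries that were read on a HiSeq. Software named, without its role, is Cufflinks 2.0.2, HISAT 0.1.6 and CASAVA, per the submitters' processing notes. The build, the annotation and any use of strand were not given in the sources read. Of 11294 LOC identifiers, 721 were given symbols by matching the species' RefSeq gene table.

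From the deposited values, log2(FPKM + 1) was fitted with limma 3.58.1 in R 4.3.3 (month 4 minus month 2, 4 brain libraries, empirical Bayes with a variance trend), for genes with a mean of at least 1 FPKM. P-values were adjusted by Benjamini-Hochberg over all genes tested, at 0.05. The change was compared with that in muscle by the interaction in 1 fit of 8 libraries. The scripts were tested on simulated data, in which the share of false calls was above the nominal level of the adjusted p, so single calls near the threshold are less certain than their adjusted p states. FPKM keeps no total count, so depth is unknown and no counting intervals are given. Same-numbered libraries of the 2 months did not deviate together (r = −0.23 across genes), so the numbers were not used as pairs.

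The genes, gene lists and tests were chosen with earlier results of these data known. Named genes were the 15 with the highest and the 15 with the lowest log2 change among called genes with a symbol, a mean of at least 5 FPKM in the higher month and no overlap, up to 6 members with the smallest p per list, all early timing genes and SIRT6, and the 5 largest differences from muscle in each direction. Other list members are given for contrast and were chosen after their values were seen. Alternatives were another pseudocount, other filters, quantile and median-ratio scaling, no variance trend, a replicate block, 1 fit of 8 libraries, and leaving out each library. A few genes that these rules name are not reported here.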

Additional observations from a re-analysis of the deposited data

Results flagged for a closer look

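The change between months differed between brain and muscle by a limma test of the difference itself in 1923 genes, and the genes with the largest differences in each direction are given here as the log2 change in brain minus that in muscle. CPLX1 differed by 5.23, PTH2 by 4.39, CDKN1A by 4.15, IGSF1 by 3.90 and PENK by 3.56. LPL differed by −4.90, CHRDL1 by −3.21, NFIX by −3.18, MN1 by −3.08 and ADRA2A by −3.06. All 10 stayed past the threshold under every alternative in which they were tested. Groups of 2 libraries were too small for a check of single outlying samples.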

How the results depend on the processing

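Between months in brain, 526 genes were called, 430 higher and 96 lower, and no called gene changed sign under any alternative. With no filter beyond 1 library above 0, limma called 0 genes, 0 higher and 0 lower, of 22127 tested, with 3265 at an unadjusted p under 0.05 and a smallest adjusted p of 0.14. Quantile normalisation left 234 calls, 168 higher and 66 lower, so that 71.8% of calls were higher in place of 81.7%. The fit of all 8 fetal libraries called 996, 763 higher and 233 lower. A pseudocount of 0.1 (439), a filter at 5 FPKM (466), median-ratio scaling (450) and no variance trend (498) stayed within 1.5 times.

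Leaving out 1 library gave from 0 to 1377 calls, from 0 to 955 higher and from 0 to 422 lower. In these fits the lone library is assumed to vary like the pair of the other month. The 2 fits with 0 calls were those without month 4 library 1 (1971 genes at an unadjusted p under 0.05, smallest adjusted p 0.13) and without month 4 library 2 (1554 genes, smallest adjusted p 0.089). With the replicate block 403 genes were called, 376 of them shared with the fit without it, and of the 82 called genes named by rule 7 were lost, among them HES6, RSPO2, SLC12A5, GABRA4, BNIP3 and B2M. A crossed pairing, chosen after seeing the data, gave 1101 calls, 842 higher and 259 lower. Quantile normalisation lost 29 of the 82.

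For the difference from muscle, 1070 genes passed with no filter, in place of 1923, 2121 with the replicate block, and from 414 to 2220 when 1 library was left out. The cause of these shifts was not tested. With 2 libraries a month and unknown depth, a gene that missed the threshold is not shown to be unchanged.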

Other observations

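Some genes of peptide signalling outside the lists were called and others were not. The genes in this section were chosen after their values were seen and are a description with no test of any group. The somatostatin receptor SSTR1 was at 42.2 and 29.2 FPKM at month 4, against 5.76 and 7.10 FPKM at month 2 (log2 change 2.29), and SSTR4 was at 5.53 and 6.01 FPKM at month 4, against 0.16 and 0 FPKM at month 2, while SSTR2 was at 18.2 and 15.7 FPKM at month 4 and 14.8 and 26.6 FPKM at month 2 (log2 change −0.22, limma adjusted p = 0.71). NPB and NPW, both ligands of the receptor NPBWR1, rose by 1.43 and 1.60 on the log2 scale, and NPBWR1 by 2.28. CRH, corticotropin-releasing hormone, was at 31.4 and 35.9 FPKM at month 4 and at 13.1 and 14.4 FPKM at month 2, its binding protein CRHBP had a log2 change of 1.103 and the related peptide UCN one of 1.78. PTH2R, the receptor of the peptide encoded by PTH2, was at 7.82 and 6.87 FPKM at month 4 and 10.6 and 8.14 FPKM at month 2 (adjusted p = 0.50).

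Of the ligands of microglial receptors looked at, 2 were called. IL34, a ligand of CSF1R, was at 19.2 and 22.4 FPKM at month 4, against 2.93 and 4.98 FPKM at month 2 (log2 change 2.17), and CX3CL1, the ligand of CX3CR1, was at 29.1 and 35.5 FPKM at month 4, against 5.39 and 5.11 FPKM at month 2 (log2 change 2.41). CSF1, the other ligand of CSF1R, was at 0.56 and 0.66 FPKM at month 4 and 0.30 and 0.31 FPKM at month 2, too low to test. Among retinoic acid genes CRABP1, a binding protein, was at 23.5 and 35.7 FPKM at month 4 and at 2.90 and 4.87 FPKM at month 2 (log2 change 2.65), the synthetic enzyme ALDH1A1 rose by 2.07, and the degrading enzyme CYP26A1 rose by 1.42. CYP26B1, a second degrading enzyme, was at 2.29 and 1.17 FPKM at month 4 and 3.82 and 9.12 FPKM at month 2 (log2 change −1.39, limma adjusted p = 0.073). ID1 and ID2, inhibitors of differentiation factors, rose by 1.55 and 1.25, and ID4 was at 24.8 and 26.7 FPKM at month 4 and 23.6 and 13.3 FPKM at month 2 (adjusted p = 0.35).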
